A study of Mus musculus with 21 samples.

Results

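The genes described here are 10 members of the mouse antioxidant system governed by the transcription factor NRF2: its gene *Nfe2l2* and that of its inhibitor, *Keap1*, and 8 genes known as targets that are not glutathione transferases, *Nqo1*, *Srxn1*, *Txnrd1*, *Txn1*, *Prdx1*, *Hmox1*, *Osgin1* and *Ephx1*. Each was taken as the gene with that symbol in GENCODE M21 on GRCm38, and all 10 were found among the 46078 genes of the count table. They were chosen by function, with earlier results of these data known. *Nqo1* and *Srxn1* are also named for liver in the text of the study, which chose them on data that include these libraries, so their direction is not independent evidence. All 10 passed the filter on low counts, which kept 14370 genes.

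The measurements were bulk RNA sequencing of 21 livers from male mice at least 9 weeks old, on a mixed 129 and C57BL/6 background. Animals labelled cse lacked *Cse*, the gene of cystathionine γ-lyase (symbol *Cth*), which makes cysteine from cystathionine, and are called KO. The comparison animals were labelled WT, while the study's text calls them heterozygous, so WT is the name in the labels only. All groups were calorie restricted throughout, on the test diets as well. They had a control diet for 3 days and then, for 2 days, the control diet (CTR, 3 WT and 4 KO), a diet lacking cysteine (noCys, 4 WT and 3 KO) or a diet lacking tryptophan (noTrp, 2 WT and 5 KO). The question was how the liver responds once neither diet nor synthesis supplies cysteine, set against the loss of tryptophan, an essential amino acid. The knockout was present in all tissues, so the liver was not altered alone, and KO noCys replicates were numbered 1, 3 and 4.

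KEAP1 holds NRF2 in the cytoplasm and passes it to the proteasome. Reactive cysteines of KEAP1 are modified by oxidants and electrophiles, NRF2 then escapes degradation, enters the nucleus and, paired with a small MAF protein, binds antioxidant response elements. In liver the pathway is known for inducing enzymes of detoxification and of thiol repair, and it is governed mainly at the level of NRF2 protein, which these RNA counts do not measure.

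Total counts per library were 8889951 to 27230852, and mitochondrial genes took 3.41% to 7.67% of them. *Cth* was between 107.8 and 451.7 CPM (the usual counts-per-million scale) in the WT libraries and between 6.34 and 14.99 in the KO libraries, so the genotypes did not overlap. Levels of single genes, *Cth* included, are CPM after TMM scaling, which sets libraries to a common effective size. Sums of markers are CPM of the library totals without that scaling, and whether their ranges overlap can change with it. A gene was called when the adjusted p of edgeR's quasi-likelihood test, over the 14370 genes, was under 0.05, and its change is a log2 fold change. The summed level of 9 hepatocyte markers was lower in KO noCys (51480 to 73470 CPM) than in WT noCys (92970 to 102500), with 4 of the 9 called lower and 0 higher. *Alb* was the largest part of that sum, with TMM-scaled means of 30290 and 67410 CPM. The markers not called were *Apoa1* (-0.54), *Ass1* (-0.14), *Apob* (-0.10), *Hnf4a* (-0.10) and *Cps1* (0.03). The sums of 14 macrophage markers (264.7 to 340.5 and 276.2 to 414.8) overlapped between the same groups, with 2 of the 14 called lower, 0 higher and a median log2 fold change of -0.58. Those of 7 erythroid markers did not overlap (138 to 176 and 176.3 to 351.2), with 3 of 5 tested genes called lower. Of 12 cholangiocyte, stellate and endothelial markers 4 were called lower in that comparison and 0 higher, the sums being 276.4 to 297.8 and 325.3 to 410.4. Over all genes 13.4% were called lower in this comparison. Against KO CTR 4 of 9 hepatocyte, 0 of 14 macrophage, 3 of 5 erythroid and 4 of 12 cholangiocyte, stellate and endothelial markers were called lower, beside 9.59% of all genes. Against KO noTrp these counts were 1, 5, 0 and 4, beside 6.75%, and 0 markers of these lists were called higher in either. Of 10 markers of other tissues only 2 passed the filter, and neither was called. The part of these markers in the results below was not tested, and in bulk tissue fewer cells of a type and less RNA per cell cannot be told apart.

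In livers without cysteine from either source, 4 of the 10 genes were higher than in WT noCys livers: *Nqo1*, *Ephx1*, *Srxn1* and *Osgin1*, by 1.93-fold to 3.66-fold. The other 6, both regulators among them, were not called, and 0 were called lower. The background is high here, since 28.2% of all tested genes were called in the same comparison, 14.8% as higher and 13.4% as lower. Against KO CTR livers 3 of the 10 were called, with 20.2% of all genes, and against KO noTrp livers 3 of the 10, with 13.9% of all genes. In both comparisons the 3 were *Nqo1*, *Ephx1* and *Srxn1*, all higher. The 3 comparisons share the KO noCys libraries, so they are not independent of each other. The median change of the 10 genes was 0.11 against WT noCys, 0.34 against KO CTR and 0.08 against KO noTrp on the log2 scale, beside medians of -0.015, 0.004 and 0.006 over all genes.

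**Figure D1:**
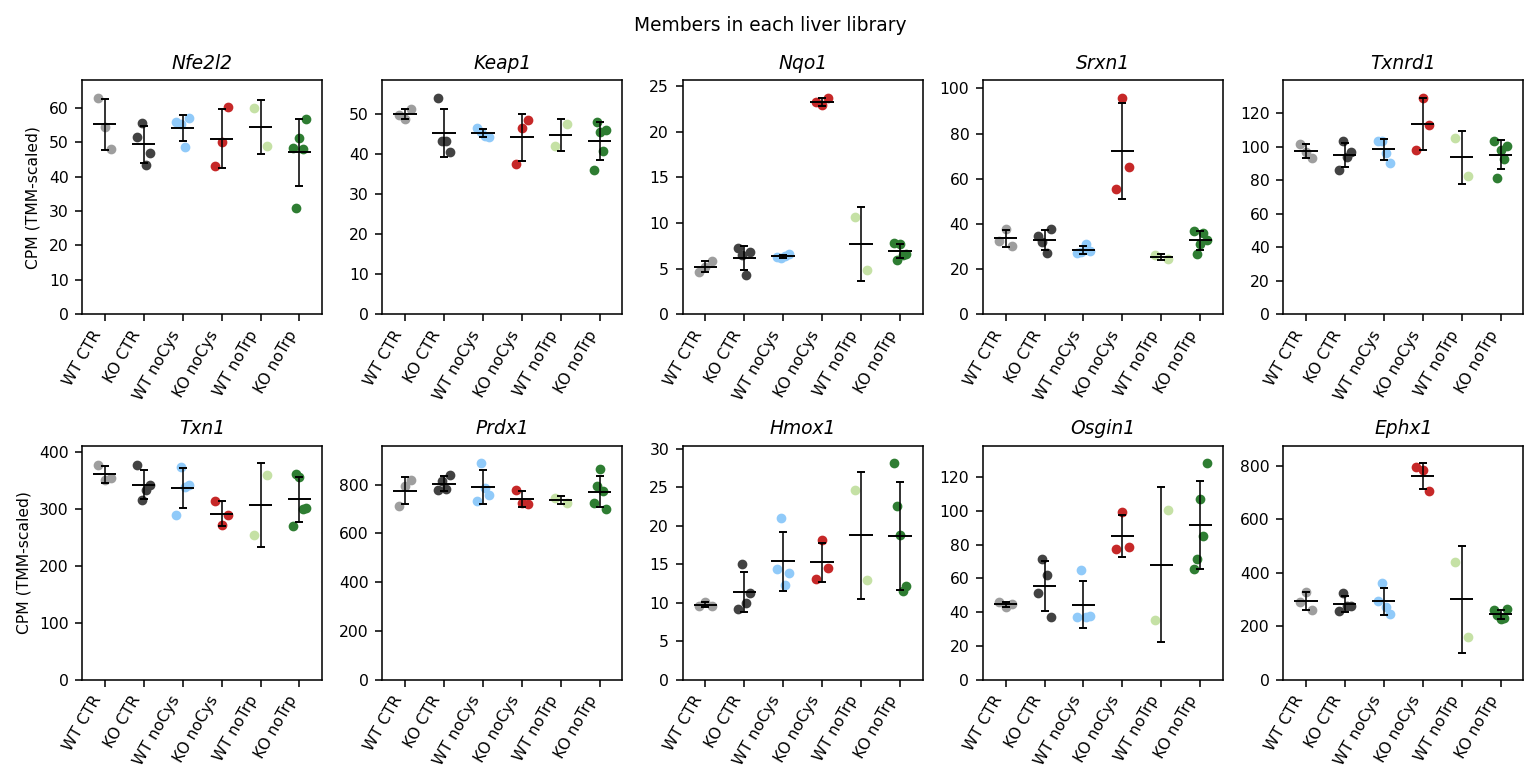
Level of each gene (CPM after TMM scaling, vertical axes from 0) in each of the 21 livers, 1 point per library, with the group mean (bar) and SD (whiskers). *Nqo1*, *Srxn1* and *Ephx1* stood above all other libraries in the 3 KO noCys livers, *Osgin1* was as high in KO noTrp, *Nfe2l2* overlapped across all 6 groups, and *Keap1* had its highest group mean in WT CTR without a call.

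Neither regulator was called in any of the 10 comparisons. *Nfe2l2* (ENSMUSG00000015839, chromosome 2, 75675513 to 75704641, minus strand) encodes NRF2. It was at 63.0, 54.5 and 48.1 CPM in WT CTR, at 51.5, 55.6, 43.5 and 46.9 in KO CTR, and at 55.8, 55.3, 48.5 and 57.2 in WT noCys. The KO noCys livers held 43.0, 50.1 and 60.2 CPM. Without tryptophan it was at 59.95 and 49.0 CPM in WT and at 48.4, 31.0, 51.4, 48.0 and 56.9 in KO. The KO noCys livers lay inside the range of the others, and the lowest value of all was KO noTrp replicate 2. KO noCys differed from WT noCys by -0.08 on the log2 scale (SE 0.16, 95% interval -0.41 to 0.25, adjusted p = 0.725), from KO CTR by 0.05 and from KO noTrp by 0.12, none called. Changes from WT noCys within that interval are not excluded by these livers.

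*Keap1* (ENSMUSG00000003308, chromosome 9, 21229730 to 21239361, minus strand) encodes the adaptor that presents NRF2 to the cullin 3 ubiquitin ligase. Its levels were 49.98, 48.8 and 51.3 CPM in WT CTR, 54.2, 43.3, 43.5 and 40.6 in KO CTR, and 46.6, 45.7, 44.6 and 44.3 in WT noCys. They were 37.6, 46.7 and 48.7 CPM in KO noCys. On the diet without tryptophan they were 42.1 and 47.7 CPM in WT and 36.1, 48.2, 45.5, 40.9 and 46.2 in KO. The spread within KO noCys covered the whole WT noCys range. The 3 WT CTR livers lay above every liver of both noCys and both noTrp groups, of which the highest was at 48.7 CPM, while KO CTR overlapped them. The differences from WT CTR were -0.14 for WT noCys (95% interval -0.38 to 0.09, adjusted p = 0.613) and -0.16 for WT noTrp (-0.44 to 0.13, adjusted p = 0.585), neither called. Between KO noCys and WT noCys *Keap1* differed by -0.03 (SE 0.11, 95% interval -0.26 to 0.20, adjusted p = 0.868). An overlapping gene on the other strand (Gm16754) shares part of the *Keap1* locus, and a small gene on the same strand (Gm24996) lies in *Nfe2l2*. The strand setting of the counting is not given in the sources used here.

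Among other genes that act on NRF2, 15 were tested and 4 were called in KO noCys against WT noCys, a share close to the 28.2% over all genes, 3 higher and 1 lower, with a median of -0.01. *Sqstm1*, which encodes p62, a protein that can sequester KEAP1, was at 663 ± 183 CPM (SD, n = 3) against 399 ± 52.7 (n = 4), higher by 0.73 on the log2 scale (SE 0.14, adjusted p = 0.000681). *Bach1*, a repressor that competes with NRF2 at its binding sites, was at 58.3 ± 10.5 against 44.3 ± 1.65 CPM, a change of 0.40 (SE 0.12, adjusted p = 0.0179). *Dpp3*, whose protein can bind KEAP1, was higher by 0.33 (SE 0.11, adjusted p = 0.0236). *Crebbp*, a coactivator that acetylates NRF2, was lower, at 28.2 ± 3.06 against 47.6 ± 15.5 CPM (-0.75, SE 0.26, adjusted p = 0.036). Against KO CTR 1 of the 15 was called (20.2% of all genes) and against KO noTrp 1 (13.9%), higher in both.

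Promoter sequence is shown because the 10 genes are known through a common element. RefSeq promoters (GRCm38.p6, 250 bases before to 50 after each start) were at hand for 9 of the 10 genes, 11 promoters in all, since *Txnrd1* had 3. The core of the antioxidant response element, TGACNNNGC on either strand, occurred in 4 of the 11 promoters and in 12.4% of 32851 promoters genome-wide. In the lines below the match is in capitals, in the direction of the gene. For *Nfe2l2*, unlike every other promoter, the bases just after the start were in no GENCODE transcript of the gene. Its positions are thus counted from a start that this annotation does not hold. The matches span bases -240 to -232 from the start in *Nfe2l2* (chr2:75704875-75704913, minus strand), -133 to -125 in *Prdx1* (chr4:116685446-116685494, plus strand), -92 to -84 in the second *Txnrd1* promoter (chr10:82859094-82859142, plus strand) and 29 to 37 bases after the start in *Srxn1* (chr2:152105544-152105568, plus strand).
Nfe2l2: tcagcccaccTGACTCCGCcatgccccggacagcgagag
Prdx1: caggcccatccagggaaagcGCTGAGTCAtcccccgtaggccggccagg
Txnrd1: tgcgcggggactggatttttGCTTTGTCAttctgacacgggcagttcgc
Srxn1: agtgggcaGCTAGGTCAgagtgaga
The last 3 hold the core on the reverse strand. No match lay in the windows of *Nqo1*, *Ephx1*, *Osgin1*, *Keap1* and *Txn1*, which says only that these letters are not in those windows. Of the 4 genes with a match, *Srxn1* was called in 5 comparisons and *Nfe2l2*, *Prdx1* and *Txnrd1* in none. In the other lists the core was in a promoter of 8 of 24 other NRF2 targets, 3 of 14 genes of NRF2 control and 3 of 24 thiol and peroxide enzymes with an entry. These counts are by gene, any promoter of the gene counting, while the 12.4% is by promoter. A genome-wide share by gene was not computed.

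*Nqo1* (ENSMUSG00000003849, chromosome 8, 107388225 to 107403206, minus strand) encodes NAD(P)H quinone dehydrogenase, which reduces quinones in a single step that avoids radical intermediates and is the usual read-out gene of NRF2. In the 3 KO noCys livers it was at 23.2, 22.9 and 23.7 CPM. It was at 6.24, 6.19, 6.36 and 6.55 CPM in WT noCys, at 4.66, 5.18 and 5.81 in WT CTR, and at 7.21, 6.53, 4.25 and 6.76 in KO CTR. The KO noTrp livers had 7.76, 5.94, 7.64, 6.52 and 6.57 CPM, the WT noTrp livers 10.6 and 4.86. The KO noCys livers differed little among themselves (SD 0.423 CPM) and lay above every other library, of which the highest was WT noTrp replicate 1.

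The rise of *Nqo1* in KO noCys was 3.66-fold over WT noCys (log2 fold change 1.87, SE 0.19, adjusted p = 1.28e-06), 3.75-fold over KO CTR (1.91, SE 0.19, adjusted p = 1.78e-06) and 3.36-fold over KO noTrp (1.75, SE 0.18, adjusted p = 4.84e-06). Removing cysteine had a different effect in the 2 genotypes, by 1.62 on the log2 scale (SE 0.28, adjusted p = 0.00215). In WT livers the same diet gave 0.28 (95% interval -0.16 to 0.73), and KO against WT on the control diet gave 0.25 (-0.19 to 0.69), neither called. *Nqo1* rested on 44 to 480 reads per library, with 206, 480 and 369 in the 3 KO noCys livers.

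*Ephx1* (ENSMUSG00000038776, chromosome 1, 180976210 to 181020904, minus strand) encodes microsomal epoxide hydrolase, which turns reactive epoxides into diols. It was at 793.5, 785.3 and 704.6 CPM in KO noCys. The WT noCys livers held 293.4, 359.8, 271.8 and 243.9 CPM, the WT CTR livers 289.8, 327.2 and 260.0, and the KO CTR livers 256.5, 325.2, 275.2 and 276.6. KO noTrp ran from 227.1 to 262.8 CPM with a median of 242.4, while the WT noTrp libraries were at 440.7 and 158.6. The KO noCys livers were again above all others, and the 2 WT noTrp livers were the next highest and the lowest of the 21. The change in KO noCys was 1.38 against WT noCys (SE 0.21, adjusted p = 8.51e-05), 1.43 against KO CTR (SE 0.21, adjusted p = 0.000105) and 1.64 against KO noTrp (SE 0.20, adjusted p = 3.98e-05). The effect of removing cysteine differed between genotypes by 1.43 (SE 0.30, adjusted p = 0.00656), and in WT livers it was -0.001 (95% interval -0.44 to 0.44). A predicted gene on the same strand (Gm36961) overlaps *Ephx1*.

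*Srxn1* (ENSMUSG00000032802, chromosome 2, 152105516 to 152111376, plus strand) encodes sulfiredoxin, which uses ATP to restore peroxiredoxins whose catalytic cysteine has been over-oxidized. Its levels in KO noCys were 55.3, 95.9 and 65.4 CPM. They were 27.2, 27.7, 31.1 and 28.1 CPM in WT noCys, 32.6, 37.7 and 30.3 in WT CTR livers, and 34.7, 31.8, 27.2 and 37.7 in KO CTR livers. Tryptophan removal left them at 26.3 and 24.4 CPM in WT livers, and at 36.9, 26.6, 31.0, 35.8 and 32.9 in KO livers. All 3 KO noCys livers exceeded the other 18, but they were spread more widely than for *Nqo1*, replicate 3 being the highest. *Srxn1* rose by 1.35 against WT noCys (SE 0.15, adjusted p = 4.18e-06), by 1.14 against KO CTR (SE 0.15, adjusted p = 3.59e-05) and by 1.15 against KO noTrp (SE 0.14, adjusted p = 5.22e-05). The genotypes differed in the effect of removing cysteine by 1.38 (SE 0.22, adjusted p = 0.000884).

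**Figure D2:**
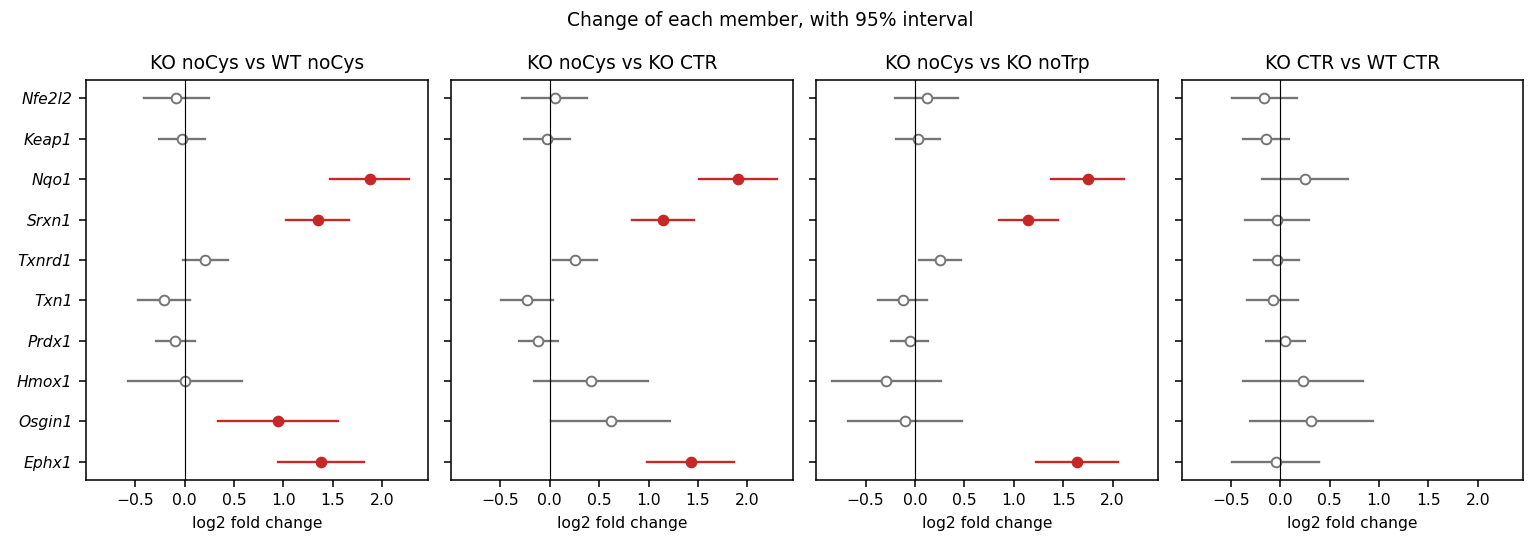
Log2 fold change (points) with its 95% interval (lines) for the 10 genes in 4 comparisons, filled red where edgeR's adjusted p was under 0.05. The 3 panels with KO noCys show *Nqo1*, *Srxn1* and *Ephx1* at 1.14 to 1.91 with *Osgin1* called in the first alone, and the panel on the control diet shows no call.

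*Osgin1* (ENSMUSG00000074063, chromosome 8, 119434124 to 119446256, plus strand) encodes an oxidative stress-induced growth inhibitor. It did not follow the same pattern. It was at 77.6, 99.6 and 78.7 CPM in KO noCys and at 37.4, 65.2, 37.3 and 37.9 in WT noCys. On the control diet it was at 46.0, 43.0 and 45.1 CPM in WT and at 51.3, 71.4, 62.0 and 37.1 in KO. On the diet without tryptophan it was at 35.6 and 100.6 CPM in WT and at 65.4, 71.7, 107.0, 85.3 and 128.4 in KO. The KO noCys livers were above the WT noCys and KO CTR livers and inside the range of KO noTrp, which held the highest value of all.

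The difference in *Osgin1* between KO noCys and WT noCys was 0.95 (SE 0.29, adjusted p = 0.0195). This call was lost without WT noCys replicate 1, 3 or 4 (0.87, 0.87 and 0.88, with adjusted p of 0.0559, 0.0537 and 0.0517) and without KO noCys replicate 3 (0.82, adjusted p = 0.0976). It was kept without KO noCys replicate 1 or 4 (1.01 and 1.005) and without WT noCys replicate 2, the highest liver of its group (1.18, adjusted p = 0.00751). Against KO CTR the change was 0.62 (SE 0.29, adjusted p = 0.139), which was called with the replicate block (0.75, adjusted p = 0.0387), and against KO noTrp it was -0.10 (95% interval -0.68 to 0.48, adjusted p = 0.851). KO noTrp against KO CTR gave 0.72 (SE 0.26, adjusted p = 0.155). The effect of removing cysteine on *Osgin1* was not shown to differ between genotypes (0.63, SE 0.41, adjusted p = 0.382).

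**Figure D3:**
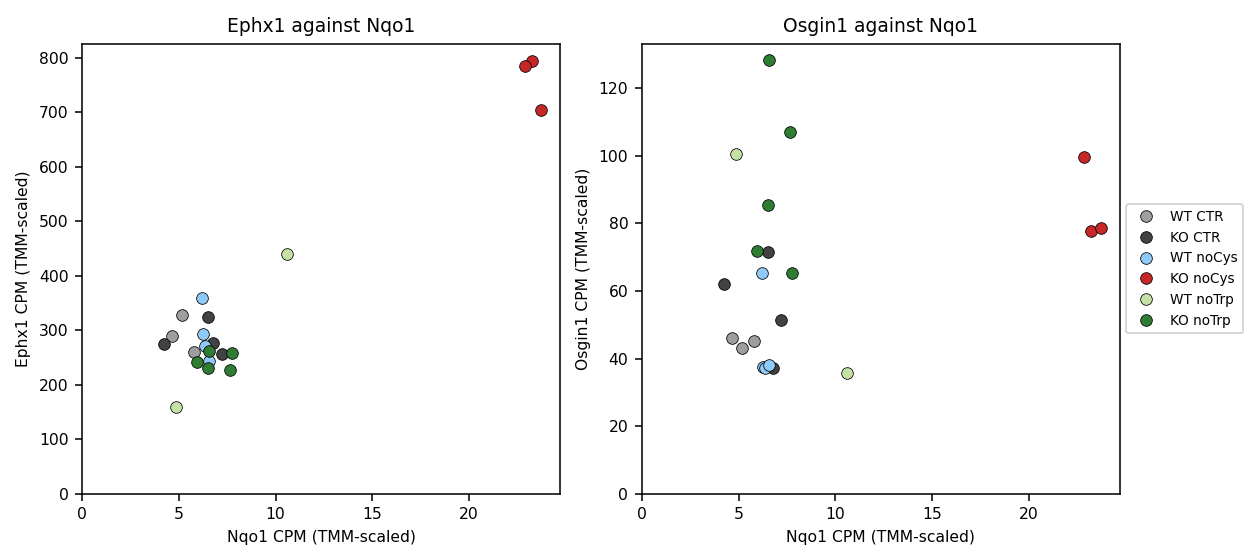
Level of *Ephx1* (left) and *Osgin1* (right) against that of *Nqo1*, in CPM after TMM scaling, 1 point per library coloured by group. *Ephx1* and *Nqo1* were both high in the 3 KO noCys livers and both raised in WT noTrp replicate 1. *Osgin1* was as high as in KO noCys in KO noTrp replicates 3, 4 and 5, with *Nqo1* at 7.64, 6.52 and 6.57.

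Over the 21 libraries the log2 levels of *Nqo1* and *Ephx1* had a Pearson correlation of 0.881, those of *Nqo1* and *Srxn1* one of 0.836, and those of *Nqo1* and *Osgin1* one of 0.278. After the group means were taken out these were 0.606, 0.328 and -0.577. The values are a description: points of a library share its depth and scaling, and the 3 KO noCys livers were the highest for each of *Nqo1*, *Srxn1* and *Ephx1*. Within WT noTrp, replicate 1 had more *Nqo1* and *Ephx1* and replicate 2 more *Osgin1*. The genes whose levels were most like those of *Nqo1* over the 21 libraries, among 9107 genes compared, were *Htatip2* (0.947), *Pir* (0.939), *Fth1* (0.934), the pseudogene *Gstm2-ps1* (0.926) and *Creg1* (0.926).

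*Txnrd1*, *Txn1* and *Prdx1*, the 3 members of the thioredoxin system, were not called by edgeR in any comparison. *Txnrd1* (ENSMUSG00000020250, chromosome 10, 82833951 to 82897712, plus strand) encodes the cytosolic selenoenzyme that reduces thioredoxin with NADPH. It was at 98.2, 129.5 and 113.3 CPM in KO noCys and at 103.7, 103.5, 96.1 and 90.6 in WT noCys. In KO CTR it was at 86.2, 103.7, 93.8 and 97.2 CPM, and in WT CTR at 101.9, 97.0 and 93.6. KO noTrp held 81.3 to 103.4 CPM with a median of 98.1, and the WT noTrp libraries 105.1 and 82.6. KO noCys replicates 3 and 4 were above all the other livers, but replicate 1 was inside their range.

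The change of *Txnrd1* in KO noCys was 0.21 against WT noCys (SE 0.11, adjusted p = 0.159), 0.26 against KO CTR (SE 0.11, adjusted p = 0.101) and 0.26 against KO noTrp (SE 0.10, adjusted p = 0.105), none called. Without KO noCys replicate 1 the last pair were called, at 0.35 each. With limma-voom all 3 were called, at 0.23, 0.28 and 0.25. Overlapping genes on both strands (*Eid3*, Gm38560 and Gm47073) share part of the *Txnrd1* locus.

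*Txn1* (ENSMUSG00000028367, chromosome 4, 57943373 to 57956411, minus strand) encodes cytosolic thioredoxin, the protein disulfide reductant that TXNRD1 recharges. Its levels were 314.2, 271.3 and 288.4 CPM in KO noCys, 289.6, 373.7, 339.0 and 342.5 in WT noCys livers, and 376.3, 315.8, 332.6 and 342.6 in KO CTR livers. The remaining groups were at 377.7, 349.7 and 354.3 CPM (WT CTR), 254.4 and 358.8 (WT noTrp) and 269.7 to 361.1 with a median of 300.9 (KO noTrp). The 3 KO noCys livers lay just under the KO CTR livers and overlapped WT noCys. The changes were -0.21 against WT noCys (SE 0.12, adjusted p = 0.226) and -0.23 against KO CTR (SE 0.13, adjusted p = 0.206).

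*Prdx1* (ENSMUSG00000028691, chromosome 4, 116685544 to 116700822, plus strand) encodes a peroxiredoxin, a peroxidase that thioredoxin reduces and sulfiredoxin repairs. It was at 780.0, 725.5 and 721.3 CPM in KO noCys, at 732.1, 888.9, 788.0 and 756.3 in WT noCys, and at 777.6, 816.2, 781.9 and 840.3 in KO CTR. WT CTR held 712.6, 793.9 and 817.8 CPM, WT noTrp 747.3 and 726.5, and KO noTrp 700.2 to 863.5 with a median of 773.7. All groups overlapped WT noCys. The change in KO noCys was -0.09 against WT noCys (95% interval -0.29 to 0.10, adjusted p = 0.49) and -0.12 against KO CTR (-0.31 to 0.08, adjusted p = 0.423). *Prdx1* was thus the most tightly bounded of the 10 genes, with an SE of 0.09, while *Srxn1*, which repairs its protein, rose in the same livers.

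Of 30 other thiol and peroxide enzymes tested, 11 were called lower and 4 higher in KO noCys against WT noCys, with a median of -0.19, beside 13.4% lower, 14.8% higher and a median of -0.015 over all genes. The difference between the directions was not tested. The lowest adjusted p were those of *Txnrd2*, the mitochondrial thioredoxin reductase (25.5 ± 2.24 against 38.5 ± 2.28 CPM, log2 fold change -0.60), *Txnrd3*, another reductase of the family (4.45 ± 1.14 against 9.21 ± 1.00, -1.04), *Prdx4*, the peroxiredoxin of the endoplasmic reticulum (58.5 ± 7.15 against 94.1 ± 13.4, -0.69), and *Gpx1*, a selenium-dependent glutathione peroxidase (1163 ± 117 against 1876 ± 199, -0.69). Their adjusted p were 8.66e-05, 0.000294, 0.000335 and 0.000998. Genotypes differed in the effect of removing cysteine for 7 of the 30, all with the lower value in KO (7.44% of all genes, 3.88% with the lower value).

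*Hmox1* (ENSMUSG00000005413, chromosome 8, 75093621 to 75100589, plus strand) encodes heme oxygenase 1, which opens heme to biliverdin, carbon monoxide and iron and is also abundant in macrophages that clear red cells. It was at 13.1, 18.1 and 14.5 CPM in KO noCys and at 14.4, 21.1, 12.3 and 13.8 in WT noCys. In WT CTR it was at 9.64, 10.1 and 9.53 CPM, and in KO CTR at 9.20, 15.1, 10.0 and 11.2. Without tryptophan, WT livers were at 24.6 and 12.9 CPM and KO livers at 28.2, 22.5, 18.8, 11.6 and 12.2. KO noCys and WT noCys overlapped fully, and the highest livers were on the diet without tryptophan.

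*Hmox1* differed by 0.01 between KO noCys and WT noCys (SE 0.28, 95% interval -0.57 to 0.58, adjusted p = 0.99). Each depleted diet stood above the control diet without a call: 0.64 for WT noCys against WT CTR (SE 0.29, adjusted p = 0.329), 0.42 for KO noCys against KO CTR (SE 0.28, adjusted p = 0.308), 0.94 for WT noTrp against WT CTR (SE 0.33, adjusted p = 0.128) and 0.71 for KO noTrp against KO CTR (SE 0.25, adjusted p = 0.14). The sums of 14 macrophage markers, without TMM scaling, were 487.7 and 489.9 CPM in WT noTrp and 356 to 555.8 in KO noTrp. They were 244.6 to 408.8 CPM in WT CTR and 249.7 to 492.9 in KO CTR. The part of these cells in the *Hmox1* values was not tested. The genes most like *Hmox1* over the 21 libraries were *Dnajb6* (0.875), *Inppl1* (0.833), *Tspan4* (0.828), *Por* (0.826) and *Med23* (0.824), none of which was among those most like *Nqo1*.

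None of the 10 genes was called in the 5 comparisons of groups without the KO noCys livers. The counts were 0 of 10 for KO CTR against WT CTR (0.32% of all genes called), 0 for WT noCys against WT CTR (0.661%), 0 for KO noTrp against WT noTrp (0.195%), 0 for KO noTrp against KO CTR (1.87%) and 0 for WT noTrp against WT CTR (3.19%). These are counts by edgeR, and at an unadjusted p under 0.05 they were 0, 1, 1, 2 and 3. DESeq2 called 0 in each, and limma-voom called 0 in 4 of them and 1 in KO noTrp against KO CTR (*Osgin1*, 0.90). With shares this low over all genes, 0 of 10 does not set these genes apart from the rest.

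The WT noTrp group rests on 2 livers that disagreed. *Nqo1* was at 10.6 and 4.86 CPM in them, *Ephx1* at 440.7 and 158.6, and *Osgin1* at 35.6 and 100.6. Leaving out replicate 1 turned *Ephx1* in WT noTrp against WT CTR from 0.04 to -0.88, which was called. Leaving out replicate 2 gave calls of *Nqo1* (1.03) and *Hmox1* (1.34) in the same comparison, and of *Ephx1* in KO noTrp against WT noTrp (-0.85). In each such fit the lone WT noTrp liver was assumed to vary like the other groups.

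Both tests of a difference between differences called the same 3 genes. The effect of removing cysteine differed between genotypes for 3 of 10 (7.44% of all genes), and the effect of genotype differed between the diets without cysteine and without tryptophan for 3 of 10 (6.35%). In the latter the values were 2.04 for *Nqo1* (SE 0.28, adjusted p = 0.000283), 1.68 for *Ephx1* (SE 0.31, adjusted p = 0.00271) and 0.98 for *Srxn1* (SE 0.23, adjusted p = 0.0124). Since this test uses the WT noTrp livers, its sizes moved with them: without WT noTrp replicate 1 it gave 1.37 for *Nqo1*, 0.76 for *Ephx1* and 0.93 for *Srxn1*, the last no longer called (adjusted p = 0.0577). Both tests use the KO noCys and WT noCys livers, so they are not independent.

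In abundance per length the 10 genes fell in a wide range. Over all exons, the mean level over the 21 libraries was 311 CPM per kilobase for *Txn1*, 255 for *Prdx1* and 178 for *Ephx1*, followed by 24.6 for *Osgin1*. *Txnrd1*, *Nfe2l2* and *Srxn1* came next at 13.9, 13.5 and 13.1, and then *Keap1* at 9.67, *Hmox1* at 8.50 and *Nqo1* at 5.69. Between neighbours in this order the ranges over the 21 libraries overlapped, except between *Ephx1* (lowest 81.3) and *Osgin1* (highest 48.0). Counted over coding bases alone, *Prdx1* came before *Txn1* (1297 and 1038 CPM per kilobase) and *Srxn1*, with its short coding region of 465 bases, moved up from rank 7 to rank 4. The order depended on the group: in KO noCys, over all exons, *Ephx1* had the highest mean (390.3 ± 25.2 CPM per kilobase, SD, n = 3), before *Txn1* (277.2 ± 20.5) and *Prdx1* (243.9 ± 10.8), and *Nqo1* (14.99 ± 0.27) came before *Nfe2l2* (13.5 ± 2.28), *Keap1* (9.44 ± 1.26) and *Hmox1* (8.70 ± 1.48).

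Other known NRF2 targets were split. Of 30 listed, 26 were tested and 15 were called in KO noCys against WT noCys, 11 higher and 4 lower, with a median of 0.41, beside 28.2% of all genes called. Those with the lowest adjusted p were *Slc48a1*, a heme transporter (113.7 ± 11.8 against 49.8 ± 3.04 CPM, 1.19), *Abcc3* and *Abcc4*, efflux pumps for conjugates (462.1 ± 44.6 against 167.4 ± 11.04, 1.46, and 11.1 ± 2.93 against 1.56 ± 0.06, 2.83), and *Fth1*, the ferritin heavy chain (4423 ± 257 against 2191 ± 63.4, 1.01). Their adjusted p were 1.38e-08, 3.83e-08, 6.22e-07 and 3.34e-06. Against KO CTR 9 of the 26 were called higher and 4 lower (20.2% of all genes called), and against KO noTrp 12 higher and 0 lower (13.9%). The effect of removing cysteine differed between genotypes for 8 with the higher value in KO and for 1 with the lower (7.44% of all genes).

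**Figure D4:**
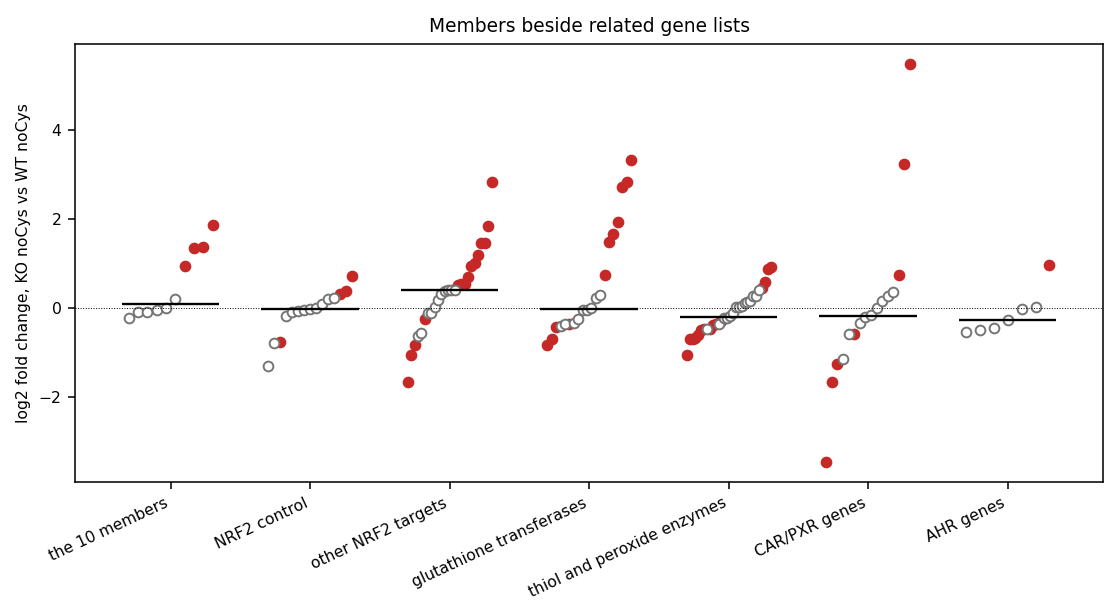
Log2 fold change of each tested gene in KO noCys against WT noCys (vertical axis), for the 10 genes and 6 related lists, with genes called by edgeR in red, others open, and a bar at each list's median. Of the lists drawn, which leave out the ATF4 targets, other NRF2 targets have the highest median (0.41), thiol and peroxide enzymes lie mostly below 0 (-0.19), and the NRF2 control genes are centred near 0 (-0.01).

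The glutathione transferases, the best known target family, had 7 of 20 called higher and 4 lower in KO noCys against WT noCys with a median of -0.01, beside 14.8% and 13.4% of all genes, which are also the shares to set beside the counts of the next lists. The lowest adjusted p were those of *Gstm1*, *Gstm4*, *Gstm3* and *Gsta2*, with log2 fold changes of 1.93, 1.66, 2.84 and 2.73. *Gsta1*, named after its values were seen, had the largest fold change of the list (3.32, adjusted p = 0.000263). Several of these are close paralogs, between which reads can be split.

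Some of the 10 genes are also known to respond to other receptors. Of 16 tested genes of the CAR and PXR receptors, which induce *Ephx1*, 3 were called higher and 4 lower in KO noCys against WT noCys, with a median of -0.17. *Cyp2c29* and *Cyp3a11*, drug-metabolizing cytochromes P450, were lower by -1.66 and -1.24 (adjusted p = 6.08e-06 and 0.000295), while *Aldh1a7*, an aldehyde dehydrogenase, and *Sult1e1*, an estrogen sulfotransferase, were higher by 0.74 and 3.25 (adjusted p = 0.00262 and 0.00442). Of 7 tested genes of the aryl hydrocarbon receptor, which induces *Nqo1*, 1 was called, *Cyp1a2* (0.97, adjusted p = 0.00418).

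Of 19 tested targets of ATF4, the transcription factor of amino acid deprivation, 15 were called higher and 1 lower in the same comparison, with a median of 1.68. *Psat1*, *Asns*, *Mthfd2* and *Eif4ebp1* had the lowest adjusted p, at 6.55, 5.56, 4.78 and 0.92 on the log2 scale. These lists were drawn up from general knowledge with earlier results of these data known, and they share some genes.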

How the data were processed

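RNA was extracted from liver with TRIzol, selected for poly(A) and sequenced from both ends. The authors aligned reads to GRCm38 with HISAT2 2.1.0 and deposited raw integer counts per gene from HTSeq 0.11.0; the annotation release and strand setting are not given in the sources used here. The table held 46078 genes, 45143 of them in GENCODE M21, and 1 column that matched no sample and was not used. Groups and replicate numbers were taken from the sample titles, which call the libraries biological replicates, so p-values measure the spread between these livers.

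Counts were fitted with edgeR 4.0.16 (R 4.3.3): filterByExpr (minimum count 10, minimum total 15) left 14370 of 26504 genes with counts, TMM factors were 0.883 to 1.14, and 1 quasi-likelihood model over 6 groups and 21 libraries gave 8 comparisons of groups and 2 differences between differences, each tested two-sided with Benjamini-Hochberg adjustment over all genes. An SE is the log2 fold change divided by the root of its F value, and intervals use it. The script was tested on simulated data. The 10 genes, the other lists and the rule for named genes (all 10, up to 4 called genes per list by adjusted p, and the 5 genes most like *Nqo1* and *Hmox1* over the libraries) were chosen with earlier results of these data known. Alternatives were DESeq2 1.42.0, limma-voom 3.58.1 with quality weights, RLE factors, library totals alone, no filter, only the groups compared, a replicate block, and each library left out. Protein sequences were not analysed here. RefSeq promoters were matched by gene symbol.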

Additional observations from a re-analysis of the deposited data

Results flagged for a closer look

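Of 30 groups of 4 or 5 libraries checked (10 genes in 3 groups), 1 held a library far from the rest: *Osgin1* was at 65.2 CPM in WT noCys replicate 2 while the other 3 livers of the group were at 37.3 to 37.9. Chance flags about 1 group in 20.

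For 3 genes the effect of removing cysteine differed between the genotypes by a direct test (edgeR's quasi-likelihood test of the difference), by 1.62 for *Nqo1*, 1.38 for *Srxn1* and 1.43 for *Ephx1* on the log2 scale. For the same 3 genes the effect of genotype differed between the diets without cysteine and without tryptophan, by 2.04 for *Nqo1*, 0.98 for *Srxn1* and 1.68 for *Ephx1*.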

How the results depend on the processing

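The calls of *Nqo1*, *Srxn1* and *Ephx1* in KO noCys against each of the other 3 groups compared, and in the effect of removing cysteine between genotypes, held in every alternative and with each library left out. Their log2 fold changes ran from 1.69 to 2.09 for *Nqo1*, 0.88 to 1.58 for *Srxn1* and 1.30 to 1.71 for *Ephx1* over the alternatives of the comparisons of groups.

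The number of the 10 genes called rose from 3 to 5 with limma-voom in KO noCys against KO CTR (*Txnrd1* and *Osgin1* added) and from 0 to 1 in KO noTrp against KO CTR. With 1 library left out it ranged from 0 to 1 in KO noTrp against WT noTrp and from 0 to 2 in WT noTrp against WT CTR, where *Ephx1* ran from -0.88 without WT noTrp replicate 1, a reversed and called value, to 0.60 without replicate 2. The cause was not tested.

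Of 269 values recomputed for calls, 264 kept them. The 5 lost were 4 of *Osgin1* in KO noCys against WT noCys and 1 of *Srxn1* in the difference of the genotype effects. Of 1281 for uncalled values 14 became calls, 1 of them the reversed *Ephx1* value, and in 122 the sign changed. Scaling by library totals alone moved the median of all genes in KO noCys against WT noCys from -0.015 to 0.200, gave uncalled *Nfe2l2*, *Keap1* and *Prdx1* a positive sign (0.14, 0.19 and 0.12) and called *Txnrd1* (0.43, adjusted p = 0.0103).

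Replicate numbers were not taken to pair the libraries, since the labels give no shared litter or day: same-numbered livers had correlations of their deviations from -0.327 to 0.180 in comparisons with 3 or more pairs, in none of which every pair was over 0.1. With 2 pairs they were 0.119 and 0.332 in KO noTrp against WT noTrp, and -0.229 and -0.003 in WT noTrp against WT CTR. With the replicate block *Nqo1* in KO noCys against WT noCys was 1.83, *Srxn1* 1.32, *Ephx1* 1.40 and *Osgin1* 1.07, all called, and the block added *Osgin1* in KO noCys against KO CTR (0.75) and changed no other call. Groups of 2 to 5 livers limit what could be called: the intervals of *Hmox1* and *Osgin1* span more than 1 log2 unit.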
